A study of Homo sapiens with 6 samples.

Results

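The 10 genes described here, GAS5, ZFAS1, SNHG1, SNHG5, SNHG6, SNHG8, SNHG12, SNHG15, SNHG16 and EPB41L4A-AS1, are noncoding snoRNA host genes. They were taken by symbol from a table of 58051 Ensembl genes, and all 10 passed the filter on low counts that left 16974 genes for testing. RNA was sequenced from DLD-1, a human colorectal cancer cell line, with both the auxin-inducible degron (AID) and NeonGreen fused to TPR, a nucleoporin of the basket on the nuclear face of the pore. All 6 cultures were given 200 nM Leptomycin B (LMB), an inhibitor of nuclear export by CRM1, for 3 h. The 3 LMB cultures received nothing else, whereas the 3 LMB+auxin cultures also received 1 mM auxin for the last 2 h, so that TPR was depleted after 1 h of LMB. These times are those of the incubation record, while the sample titles give 2 h in both groups. Auxin alone and untreated cells were not analysed here, so the values compare TPR depletion plus auxin with no depletion, both under blocked CRM1. The degron removes TPR protein, which RNA counts do not measure.

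Small nucleolar RNAs (snoRNAs) guide the chemical modification of ribosomal RNA. Those of box C/D class direct ribose methylation and those of box H/ACA class direct pseudouridylation. In human cells most of them are cut from the introns of a host gene after splicing. The spliced exons of many noncoding hosts carry no long reading frame, are exported, meet ribosomes and are removed by nonsense-mediated decay. Many hosts start transcription within a tract of pyrimidines, the terminal oligopyrimidine (TOP) motif that they share with genes for ribosomal proteins and translation factors. The level of a host RNA therefore depends on transcription, splicing, export and decay together, and a count of total RNA does not separate them.

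The first bases of the host RNAs are shown because the TOP start is a known feature of such hosts that played no part in their choice. A start was counted when it had C at the first base followed by at least 4 bases that were C or T, read on the RNA strand only. Of the 10 hosts, 9 had at least 1 GENCODE 44 transcript with such a start, against 16.6% of the 16748 tested genes found in GENCODE 44. Among the 7005 of these genes with at least 8 transcripts, as every host has, the share was 28.2%. The tract was found in 50 of 91 GAS5 transcripts but in 3 of 89 SNHG5, 3 of 18 SNHG16, 1 of 80 SNHG1 and 0 of 14 SNHG15 transcripts. A host with many annotated transcripts has more chances of 1 match, and the shares were not matched for that number. The commonest start of this kind is given for 8 of the 9 hosts, leaving out SNHG6, as 24 bases of the GENCODE 44 transcript, with the pyrimidine tract in capitals. A match of letters is a description and was not tested as a start site.
GAS5: CTTTTCgaggtaggagtcgactcc
ZFAS1: CTTTCgcgtctgcggtgcccggag
SNHG1: CTCCTgtctgcaggatttacgcgc
SNHG5: CTTTTacgtcggccttcgcgagcg
SNHG8: CTTTCacattcgggaagcgtcggg
SNHG12: CCTTTCTCCCCgccgcattcccgg
SNHG16: CTTTTCgaggtcggccgcgtggct
EPB41L4A-AS1: CCTTTCTTCCTTTTggtgcgagct

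The hosts held 22 distinct GENCODE 44 snoRNA genes on their own strand that were also in the count table. Of these, 16 were of box C/D class and 6 of box H/ACA class. Outside the exons of the canonical host transcript lay 21 of them, and the exception was SNORA9 in SNHG15. In contrast, 19 of the 22 overlapped an exon of some transcript of the host. The sequences of SNORA24, SNORA61, SNORD12 and SNORD26, each the most counted snoRNA of its host, and of those that the results below turn on are given from GENCODE 44 on GRCh38. Capitals mark box C (TGATGA) and box D (CTGA) in the C/D class and the ACA that stands 3 bases from the end in the H/ACA class, and the box C/D snoRNAs without TGATGA carry capitals at box D only. On the RNA strand, TGATGA was present in 9 of the 16 box C/D snoRNAs and CTGA in 16 of 16, against 25.1% and 43.0% of 991 annotated snoRNAs of all classes searched the same way. The ACA was in place in 5 of the 6 box H/ACA snoRNAs, against 30.8% of all. These 991 mix the classes that the boxes define, so higher shares follow from the class itself. The share among all snoRNAs of the same class was not computed.
SNORA24 of SNHG8 (chr4:118279190-118279320, plus strand): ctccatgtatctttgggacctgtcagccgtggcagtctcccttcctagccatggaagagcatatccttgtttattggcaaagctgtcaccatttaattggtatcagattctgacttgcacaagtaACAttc
SNORA61 of SNHG12 (chr1:28579764-28579893, minus strand): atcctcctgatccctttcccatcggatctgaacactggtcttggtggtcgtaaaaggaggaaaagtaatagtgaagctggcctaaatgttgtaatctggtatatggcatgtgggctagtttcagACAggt
SNORD12 of ZFAS1 (chr20:49280683-49280772, plus strand): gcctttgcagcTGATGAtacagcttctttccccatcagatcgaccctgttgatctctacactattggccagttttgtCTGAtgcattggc
SNORD26 of SNHG1 (chr11:62855292-62855366, minus strand): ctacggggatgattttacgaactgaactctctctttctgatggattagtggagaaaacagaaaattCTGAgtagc
SNORD30 of SNHG1 (chr11:62853663-62853732, minus strand): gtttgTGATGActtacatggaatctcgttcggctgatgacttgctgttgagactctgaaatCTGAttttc
SNORD22 of SNHG1, ENSG00000277194 (chr11:62852910-62853035, minus strand): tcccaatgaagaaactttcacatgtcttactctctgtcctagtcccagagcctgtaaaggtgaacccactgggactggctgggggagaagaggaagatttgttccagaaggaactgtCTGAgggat
SNORD1A of SNHG16 (chr17:76561634-76561705, plus strand): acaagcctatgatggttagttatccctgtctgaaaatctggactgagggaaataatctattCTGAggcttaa
SNORD1B of SNHG16 (chr17:76561109-76561192, plus strand): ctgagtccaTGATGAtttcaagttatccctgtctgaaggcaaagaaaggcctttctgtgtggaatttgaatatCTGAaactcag
SNORD1C of SNHG16 (chr17:76558791-76558868, plus strand): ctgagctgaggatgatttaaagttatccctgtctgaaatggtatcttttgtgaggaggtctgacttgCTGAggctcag

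Total counts per library ran from 28261903 to 35992425, and the 10 hosts took from 0.0928% to 0.110% of them. Samples with the same replicate number deviated together in the 2 groups, so values are given from the edgeR quasi-likelihood fit without and with that number as a block. Of 8 epithelial markers listed for colon, 7 passed the filter, among them KRT8 at 3433 CPM and KRT18 at 2459 CPM in LMB. None of the 4 fibroblast and 4 leukocyte markers passed it, and of 3 endothelial markers VWF did, at 3.76 CPM.

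No host gene was called between LMB+auxin and LMB. Levels are in CPM, the count divided by a common TMM-scaled library total, and a call required an edgeR p under 0.05 after Benjamini-Hochberg adjustment together with a change of 1.3-fold or more. Without the block edgeR called 0 of the 10 hosts, against 0.00589% of all genes (1 of 16974), and 0 hosts had an unadjusted p under 0.05, against 4.37%. With the block it called 0 of 10, against 1.18% (201 genes), and 0 passed the adjusted p alone, against 4.36% (740 genes). At an unadjusted p under 0.05 the block left 1 of 10 hosts, SNHG5, against 19.9% of genes. DESeq2 called 0 hosts without the block (0.0648% of genes) and 0 with it (0.183%). The groups of 3 libraries overlapped in CPM for all 10 hosts, whereas 11.5% of genes had groups apart. The median log2 fold change over the hosts was 0.019 without the block and 0.017 with it, beside -0.0027 and -0.0034 over all tested genes.

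Among the hosts of box C/D snoRNAs, GAS5 (ENSG00000234741, GRCh38 chromosome 1, 173858559 to 173868882, minus strand), named for its rise in growth-arrested cells, was at 197, 194 and 181 CPM in LMB replicates 1, 2 and 3. In LMB+auxin it was at 201, 193 and 173 CPM. The auxin values enclosed those of LMB, with replicate 3 lowest in both groups. The block fit gave a log2 fold change of -0.01 (standard error 0.05, 95% interval -0.10 to 0.08, edgeR adjusted p 0.903). The RefSeq annotation places 11 snoRNAs inside GAS5. In GAS5, 0 GENCODE 44 snoRNA genes were found in the count table, so no count of a GAS5 snoRNA was matched. RefSeq also places 9 snoRNA genes in SNHG1 and 2 in SNHG5. There 7 and 1 GENCODE 44 snoRNA genes were found in the count table, and any others entered no snoRNA count below.

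SNHG1 (ENSG00000255717, chromosome 11, 62851978 to 62855953, minus strand), which holds 7 of the 22 snoRNA genes described above, was at 224, 165 and 199 CPM in LMB. With auxin it was at 231, 174 and 192 CPM. Replicate 2 was lowest in both groups, and the gap between replicates 1 and 2 exceeded the difference within any of the 3 pairs. The log2 fold change was 0.02 in both fits, and its standard error fell from 0.13 without the block to 0.05 with it. The interval was accordingly -0.27 to 0.31 without and -0.07 to 0.11 with the block, where the edgeR adjusted p was 0.827.

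SNHG16 (ENSG00000163597, chromosome 17, 76557727 to 76670985, plus strand), host of the SNORD1 family, was at 209.9, 201 and 218 CPM in LMB and at 231, 203 and 225 CPM in LMB+auxin. It was the only host higher with auxin in all 3 pairs, as were 21.4% of genes. The groups nevertheless overlapped, since replicate 2 with auxin lay below LMB replicates 1 and 3. The log2 fold change was 0.07 in both fits, where the standard error was 0.07 without and 0.05 with the block (edgeR block adjusted p 0.424).

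ZFAS1 (ENSG00000177410, chromosome 20, 49278178 to 49299600, plus strand), transcribed antisense to ZNFX1 and host of the SNORD12 family, was at 77.4, 84.5 and 81.1 CPM in LMB. Under auxin the 3 libraries gave 86.5, 85.3 and 74.0 CPM, so that the highest and the lowest value both came from this group. The difference was 0.16 in pair 1, 0.01 in pair 2 and -0.13 in pair 3 on the log2 scale. The edgeR log2 fold change with the block was 0.01 (standard error 0.05, adjusted p 0.918).

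SNHG5 (ENSG00000203875, chromosome 6, 85650491 to 85678932, minus strand), host of SNORD50B, was at 33.4, 28.9 and 32.9 CPM in LMB and at 39.7, 31.8 and 32.6 CPM in LMB+auxin. The auxin library of replicate 1 stood above the other 5, and the other auxin values lay inside the range of LMB. Its log2 fold change of 0.12 with the block was the highest among the 10 hosts, with an interval from 0.0019 to 0.24. The unadjusted edgeR p was 0.0465 and the adjusted p 0.243, and without the block they were 0.247 and 0.954. Without replicate 1 in both groups the block value was 0.057.

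SNHG6 (ENSG00000245910, chromosome 8, 66920561 to 66926398, minus strand), host of SNORD87, was at 34.5, 38.4 and 34.9 CPM in LMB. All 3 auxin libraries lay close together at 33.9, 34.7 and 34.8 CPM, and LMB replicate 2 stood above the rest. It was lower with auxin in all 3 pairs, as were 20.5% of genes. The log2 fold change was -0.06 in both fits (edgeR block adjusted p 0.618, interval -0.18 to 0.06).

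Of the hosts of box H/ACA snoRNAs, SNHG8 (ENSG00000269893, chromosome 4, 118278703 to 118285316, plus strand), host of SNORA24, was at 108, 114 and 112 CPM in LMB and at 110.1, 118 and 103 CPM in LMB+auxin. The highest and lowest values were again both from the auxin group. Its log2 fold change was -0.02 (block standard error 0.05, edgeR adjusted p 0.870). SNHG12 (ENSG00000197989, chromosome 1, 28578538 to 28583132, minus strand) holds 3 box H/ACA snoRNAs and the box C/D snoRNA SNORD99. It was at 83.3, 73.4 and 71.5 CPM in LMB and at 84.3, 70.6 and 77.3 CPM in LMB+auxin. The pairs did not share a direction, and the log2 fold change was 0.03 (block standard error 0.05, edgeR adjusted p 0.820).

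SNHG15 (ENSG00000232956, chromosome 7, 44983019 to 44986961, minus strand), host of SNORA9, was at 38.0, 29.6 and 35.0 CPM in LMB. With auxin the same replicates were at 36.04, 25.9 and 33.0 CPM. The order of the 3 replicates was the same in both groups, and each auxin library lay below its LMB partner. The log2 fold change of -0.12 with the block (interval -0.24 to 0.0042) was the lowest among the hosts, with an unadjusted edgeR p of 0.0584 and an adjusted p of 0.269. EPB41L4A-AS1 (ENSG00000224032, chromosome 5, 112160526 to 112164818, plus strand), host of SNORA13 and the least counted of the 10, was at 21.9, 21.3 and 22.7 CPM in LMB and at 24.7, 20.1 and 22.3 CPM in LMB+auxin. The 3 auxin values spread more widely than the LMB values and enclosed them. Its block log2 fold change was 0.02 with an interval from -0.11 to 0.15 (edgeR adjusted p 0.893).

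**Figure D1:**
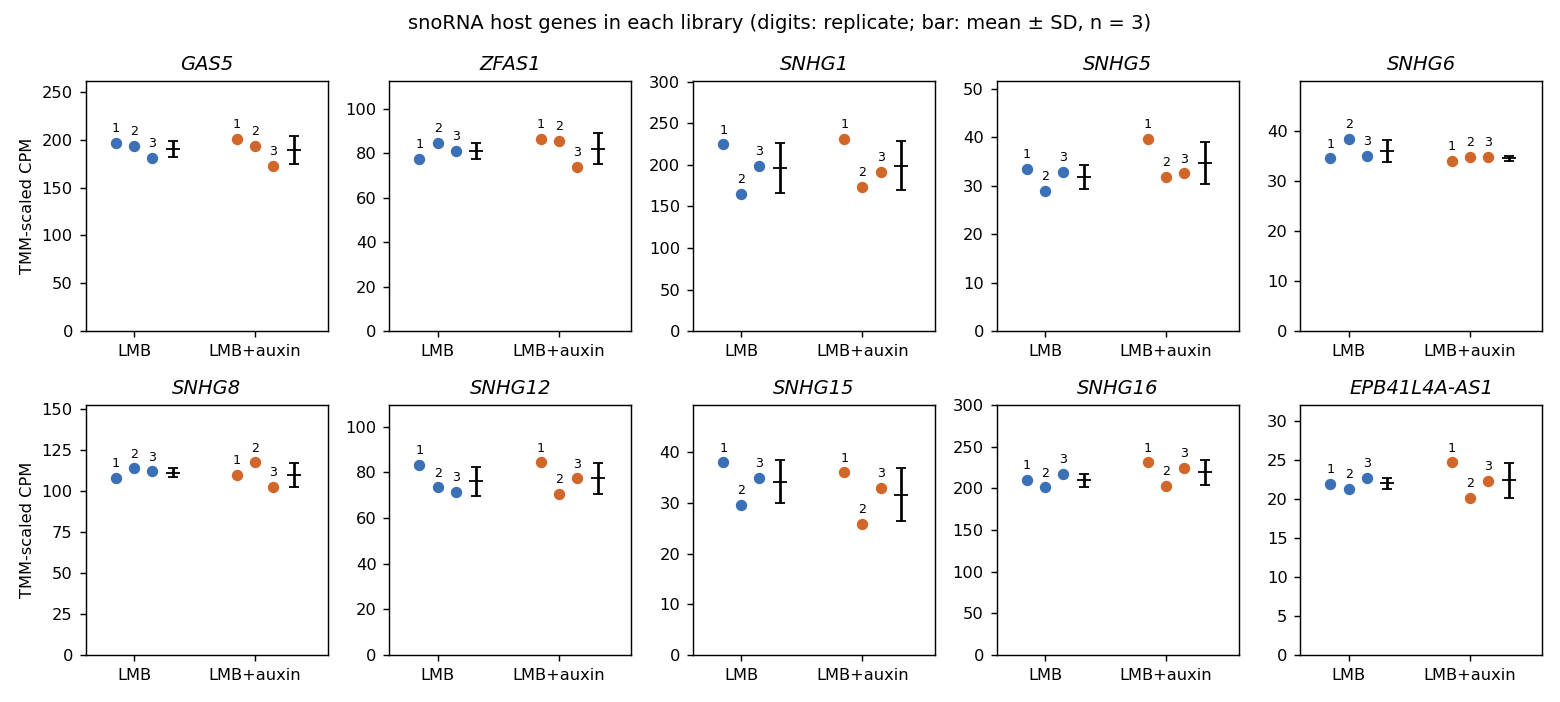
TMM-scaled CPM (vertical axes, each starting at 0) of each snoRNA host gene in the 3 LMB and 3 LMB+auxin libraries, with replicate numbers beside the points and the mean ± SD (n = 3) as a bar. The groups overlap in all 10 panels, and SNHG1 and SNHG15 are lowest in replicate 2 of both groups.

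With the block, the intervals of all 10 hosts lay within a 1.3-fold change either way (0.38 on the log2 scale), which bounds the size of a difference but does not show that there was none. Without the block the interval of SNHG15 reached -0.41 and passed that bound. Adjusted p-values ran from 0.954 to 0.991 by edgeR without the block, and from 0.579 to 0.979 by DESeq2 with it.

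**Figure D2:**
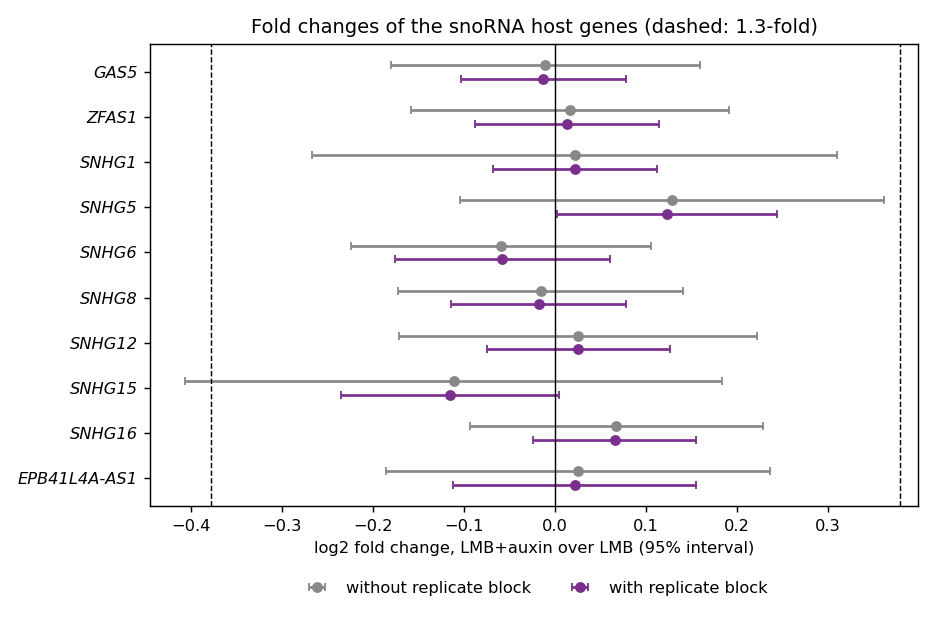
Log2 fold change of each host, LMB+auxin over LMB (horizontal axis), with 95% intervals from edgeR without (grey) and with (purple) the replicate block; dashed lines mark a 1.3-fold change. The block narrows the interval of SNHG1 from -0.27 to 0.31 to -0.07 to 0.11, and all purple intervals stay between the dashed lines.

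Per kilobase of collapsed exons, SNHG1 was the most abundant host in LMB at 49.3 ± 7.51 CPM per kb (SD, n = 3), followed by GAS5 at 38.6 ± 1.69 and SNHG16 at 36.3 ± 1.42. The libraries of GAS5 and SNHG16 overlapped, as did those of SNHG12 (17.8 ± 1.48) and SNHG8 (16.8 ± 0.454). SNHG6 came next at 14.2 ± 0.852, and ZFAS1 (9.74 ± 0.424) and SNHG15 (8.67 ± 1.07) again overlapped. EPB41L4A-AS1 at 5.12 ± 0.161 and SNHG5 at 2.52 ± 0.197 CPM per kb closed the order. Other neighbours in this order were apart in all 3 LMB libraries. The level of SNHG5 rests on 12604 collapsed exonic bases from its 89 GENCODE 44 transcripts, and GENCODE 44 is a later release than the models used for counting. The collapsed exons of SNHG1 (3976 bases), SNHG8 (6614), SNHG15 (3943) and EPB41L4A-AS1 (4293) cover the whole gene. Those of SNHG16 cover 5776 bases between positions 76557727 and 76670985. The divisor is thus gene length for some hosts and exon length for others, and the order depends on the annotation. These levels include counts of snoRNA genes inside the host exons. Without those counts and bases, a setting added after the data were seen, SNHG12 was at 10.7 ± 1.37 CPM per kb (SD, n = 3), below SNHG6 (14.0 ± 0.989) and SNHG8 (13.0 ± 0.459), and SNHG1 at 45.3 ± 8.20 overlapped GAS5.

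Levels of the hosts also differed between replicate numbers, with the 3 replicate means of a host spanning from 0.095 (SNHG6) to 0.43 (SNHG1) on the log2 scale. In an edgeR quasi-likelihood F test of the replicate terms, added after the data were seen, 5 of 10 hosts had an adjusted p under 0.05, against 33.7% of all genes. SNHG1 deviated from its mean over the 6 libraries by 0.22, -0.21 and -0.01 on the log2 scale in replicates 1, 2 and 3 (edgeR adjusted p 2.9e-09). SNHG15 deviated by 0.18, -0.24 and 0.06 (1.3e-05). In both, replicate 1 was highest and replicate 2 lowest. SNHG12 (edgeR adjusted p 0.0071) and SNHG5 (0.0097) were also highest in replicate 1 and lowest in replicate 2, and GAS5 (0.028) was lowest in replicate 3, at -0.10. For SNHG16 the adjusted p was 0.084, and for EPB41L4A-AS1, ZFAS1, SNHG8 and SNHG6 it ran from 0.21 to 0.54. The labels do not say what the replicate number marks beyond a separate sample of each group, so what differs between the numbers was not tested.

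**Figure D3:**
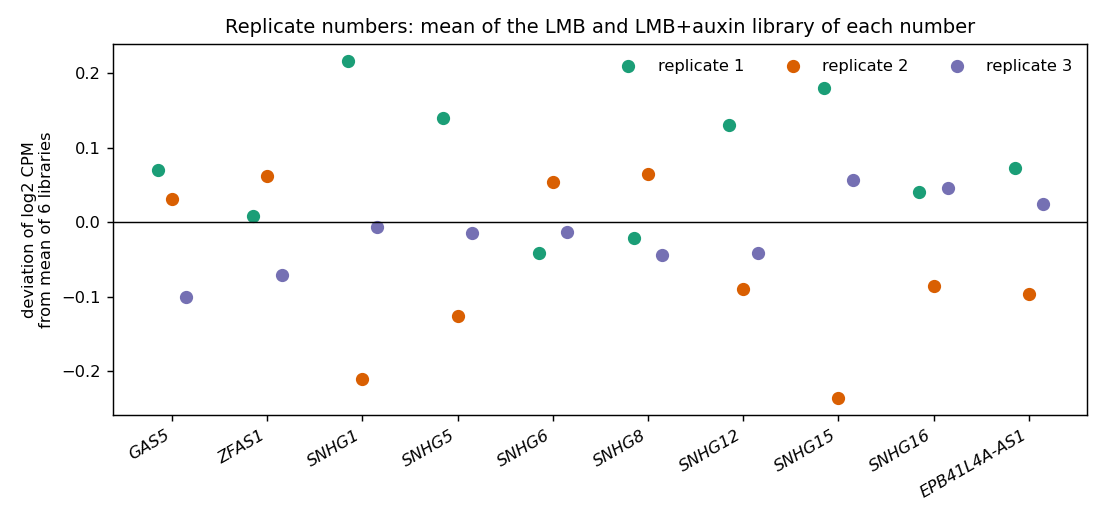
Deviation of log2 CPM from the mean of the 6 libraries (vertical axis) for each host, as the mean of the LMB and LMB+auxin library of each replicate number. SNHG1 (0.22 against -0.21) and SNHG15 (0.18 against -0.24) are spread furthest between replicates 1 and 2.

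The hosts did not move as 1 group across libraries. Over the 45 pairs of hosts, the median Pearson correlation of log2 CPM over the 6 libraries was 0.18, and 27 pairs were positive. SNHG16 and EPB41L4A-AS1 had the highest value (0.89), followed by SNHG1 with SNHG5 (0.86) and SNHG1 with SNHG15 (0.86). SNHG5 with SNHG6 (-0.79) and SNHG1 with SNHG6 (-0.75) had the lowest. These correlations are descriptions over 6 libraries that share treatment, replicate number and scaling. Among the 16964 other tested genes, the 5 whose log2 CPM followed the mean of the 10 hosts most closely were LYRM2 (r = 0.992), FOXN2 (0.991), SETD4 (0.988), CACUL1 (0.987) and ENSG00000270068 (0.986). They were picked as the highest of 16964 correlations over 6 libraries, so high values are built into the choice and were not tested.

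The snoRNA genes inside the hosts were measured as features of their own, although libraries of this kind recover short mature snoRNAs poorly and a count at such a locus can also come from unspliced host RNA. Of the 22 snoRNA genes, 19 passed the filter, and edgeR called 0 of them without the block and 0 with it (block adjusted p 0.117 to 0.975). With auxin 14 of the 19 were lower and 5 higher, with a median log2 fold change of -0.079. Over all tested genes, 8615 of 16974 were lower and the median was -0.0027. The 19 are not independent, since several lie in 1 host. SNORA24 in SNHG8 had the highest counts of them, at 27.0, 27.4 and 26.2 CPM in LMB and 26.5, 28.6 and 24.8 CPM in LMB+auxin. SNORA61 in SNHG12 was at 18.3, 17.3 and 13.5 CPM in LMB and 15.7, 15.7 and 16.6 CPM in LMB+auxin. In both, the groups overlapped.

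The extremes of the 19 were in the same host, SNHG1. SNORD30 was at 3.81, 3.46 and 3.09 CPM in LMB and at 3.21, 2.23 and 2.61 CPM in LMB+auxin, lower in all 3 pairs, with overlapping groups. The block fit put it at -0.36 on the log2 scale (standard error 0.14, edgeR adjusted p 0.117). In contrast, 1 of the 2 genes named SNORD22, ENSG00000277194, was at 7.76, 7.66 and 7.73 CPM in LMB and at 9.86, 8.24 and 8.94 CPM in LMB+auxin. Its groups were apart, and the block fit put it at 0.22 (standard error 0.09, edgeR adjusted p 0.157). SNORA44 in SNHG12 was the other tested snoRNA with groups apart, lower in all 3 pairs at -0.14 (edgeR adjusted p 0.485), so 2 of 19 had groups apart, against 11.5% of genes. The other SNORD22 gene, ENSG00000278527, had a block value of -0.26 (0.257), and SNORD26, the most counted in SNHG1, one of 0.0064 (0.975). The snoRNAs of SNHG1 thus lay on both sides of no difference, and none passed the test.

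Host counts included reads of the snoRNA loci, as far as reads in an overlap were counted for every gene there. The 2 overlapping gene models of SNORA16A in SNHG12 had nearly equal mean counts of 381 and 379, as such counting gives. The snoRNA genes overlapping exons of SNHG12 had counts equal to 40.02% to 50% of the host count in the 6 libraries. For SNHG8 the share was 23.4% to 25.0%, for SNHG1 20.3% to 25.2% and for ZFAS1 12.4% to 16.0%. It was lower for EPB41L4A-AS1 (7.12% to 10.1%), SNHG15 (6.21% to 9.09%), SNHG5 (5.18% to 8.46%), SNHG6 (3.75% to 6.43%) and SNHG16 (0.524% to 1.04%). Per base, the snoRNA loci had 15.7 times the count of the rest of the exons in SNHG8 and 13.4 times in SNHG5, but 0.268 times in SNHG16. The collapsed exons of SNHG8 cover its whole gene, so that this rest includes bases that are intronic in some transcripts. The study's methods name an Ensembl release older than GENCODE 44 for counting, which was not used here, so these shares hold only if its exons covered the snoRNAs as GENCODE 44 does.

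**Figure D4:**
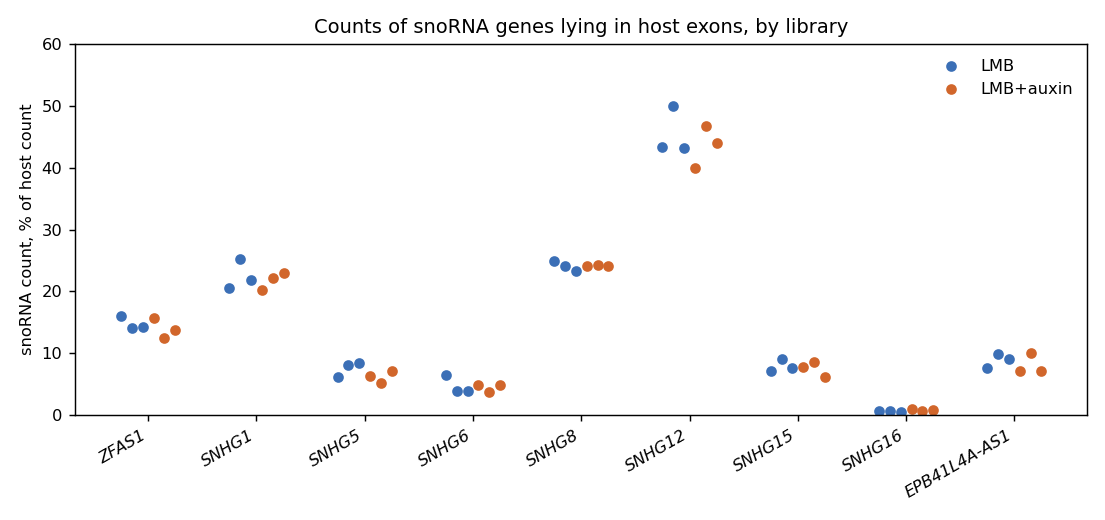
Summed count of the snoRNA genes that overlap host exons, as a percent of the host count (vertical axis, from 0), with 1 point per library, LMB in blue and LMB+auxin in orange, in the order of replicates 1 to 3. SNHG12 is highest at 40.02% to 50% and SNHG16 lowest at 0.524% to 1.04%, and the groups overlap for all 9 hosts shown.

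When these counts were subtracted, a setting added after the data were seen, no host was called in either fit. SNHG12 went from a block log2 fold change of 0.03 to 0.08 (edgeR adjusted p 0.469), and SNHG5 from 0.12 to 0.14 (0.168). The difference between replicate numbers remained past the threshold for SNHG1 (edgeR adjusted p 6.7e-11), SNHG15 (5.1e-06), SNHG12 (1.3e-05), SNHG5 (0.0081) and GAS5 (0.028), which holds none of the counted snoRNAs.

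To ask whether snoRNAs and hosts moved apart, the summed CPM of the snoRNA genes in a host was divided by the CPM of the host. The host CPM still held the reads of the snoRNA loci, as far as these were counted for both genes. The ratio is then a part over a whole that contains it, which draws its differences toward 0. This applies most to SNHG12, where the share was 40.02% to 50%. A ratio to the host without those reads was not tested. Of 9 hosts with counted snoRNAs, 7 had a lower log2 ratio with auxin, with a median difference of -0.057. However, 3 against 3 libraries cannot show such a difference at 0.05, since the smallest p of the two-sided exact permutation test is 0.1 (Benjamini-Hochberg p 0.8 for all 9). That test exchanged libraries between the groups without regard to replicate number, and a paired test was not run. By replicate pair, ZFAS1 was lower and SNHG16 higher in 3 of 3, and the other 7 hosts had no shared direction. SNHG16 had the largest difference, 0.37, with log2 ratios of -6.76, -7.00 and -7.11 in LMB and of -6.32, -6.72 and -6.71 in LMB+auxin. Its groups were apart (exact permutation p 0.1). This ratio rests on few counts, since SNORD1A, SNORD1B and SNORD1C had mean counts of 27.0, 11.5 and 20.3 and all lay below the filter. SNORD1A was at 0.80, 0.71 and 0.70 CPM in LMB and at 1.25, 0.89 and 0.91 CPM in LMB+auxin. SNHG5 had the lowest difference, -0.28 (exact permutation p 0.3), and SNHG8 the smallest, 0.0024 (0.8).

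Genes that overlap the hosts were examined because a read in an overlap may have been counted for either. Of 13 such neighbours other than snoRNAs, 11 were tested and edgeR called none in either fit. GAS5-AS1, antisense to GAS5, had a block log2 fold change of 0.02 (edgeR adjusted p 0.930). ZNFX1, opposite ZFAS1, was at -0.03 (0.802), and the RNAs ENSG00000274760 and ENSG00000277967 inside ZFAS1 at 0.02 (0.855) and 0.08 (0.509). These gene models, of 93 and 87 bases, lie wholly within exons of ZFAS1 on its strand, so reads there may be of ZFAS1 itself. Their mean counts were 1213 and 788, beside 2530 for ZFAS1. As far as reads in an overlap were counted for every gene, much of the ZFAS1 count may thus come from these few bases. MCMDC2 beside SNHG6 was at -0.02 (0.907), PRSS12 beside SNHG8 at 0.01 (0.941), TRNAU1AP beside SNHG12 at 0.0084 (0.958) and EPB41L4A beside its antisense host at -0.04 (0.848). All 4 lie on the opposite strand. The libraries were stranded, but whether counting used the strand was not given in the sources used here. MCMDC2 shares 1488 of the 2527 exonic bases of SNHG6, PRSS12 2487 of the 6614 of SNHG8 and EPB41L4A 2200 of the 4293 of its host. ENSG00000271793, a gene on the strand of SNHG5 that shares 943 exonic bases with it, had a mean count of 2306, above the 1031 of SNHG5 itself, and a block log2 fold change of 0.01 (0.919). The counts of SNHG5 are therefore uncertain in the shared bases. ENSG00000277830 in ZFAS1 and PKMP3 in SNHG5 had mean counts of 4.33 and 3.50 and were not tested.

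Other genes of the pathway were read from lists. The values given for single genes are log2 fold changes and edgeR adjusted p-values of the fit with the block. Of 19 other noncoding hosts, 18 were tested and none was called in either edgeR fit (median log2 fold change -0.02, 8 higher and 10 lower). SNHG9 had the highest value, 0.17 (0.407), and SNHG10 the lowest, -0.12 (0.358). Of the 8 snoRNP core proteins none was called, with values from -0.01 for FBL (0.924), the methyltransferase fibrillarin, to 0.12 for NOP58 (0.110), both of box C/D particles. None of the 12 factors of snoRNP assembly and transport was called, with COIL, the coilin of Cajal bodies, lowest at -0.14 (0.180) and DBR1, the lariat debranching enzyme, highest at 0.11 (0.252). The 15 factors of nonsense-mediated decay and the exon junction likewise held no call, from SMG9 at -0.16 (0.173) to MAGOH at 0.11 (0.289). The 14 TOP translation genes had a median of 0.04, from EEF1D at -0.09 (0.222) to NAP1L1 at 0.13 (0.0603), and none was called.

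Protein-coding genes that hold an intronic snoRNA were a further comparison, with 223 of 272 tested. edgeR called 0 in either fit. Without the block their median log2 fold change was 0.045, with 170 higher and 53 lower. It was 0.019 for the 10 noncoding hosts described here and -0.018 for the 18 other noncoding hosts, of which 8 were higher and 10 lower. All tested genes had a median of -0.0027, with 8359 of 16974 higher. With the block the median over the coding hosts was 0.045. It ran from 0.032 to 0.052 under other scalings and from 0.037 to 0.055 when 1 replicate number was left out. In the latter settings the median of the 10 noncoding hosts described here ran from -0.038 to 0.046. The difference between the lists was not tested. At an adjusted p under 0.05 alone the block left 4 coding hosts, all higher, or 4 of 223, against 1.11% of genes in that direction. These were TIPIN (0.22, edgeR adjusted p 0.0125), CWF19L1 (0.19, 0.0292), the translation factor gene EIF4A2 (0.14, 0.0348) and the ribosomal protein gene RPL21 (0.14, 0.0488), each higher in 3 of 3 pairs and none by 1.3-fold. By the block fit TTC6 (0.24), TIPIN and CATSPERB (0.21) were the 3 highest, and N4BP2L1 (-0.22), KCNC4 (-0.20) and ENSG00000269179 (-0.17) the 3 lowest. Differences between replicate numbers passed the edgeR test in 105 of the 223 coding hosts and 12 of the 18 other noncoding hosts, against 33.7% of all genes.

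**Figure D5:**
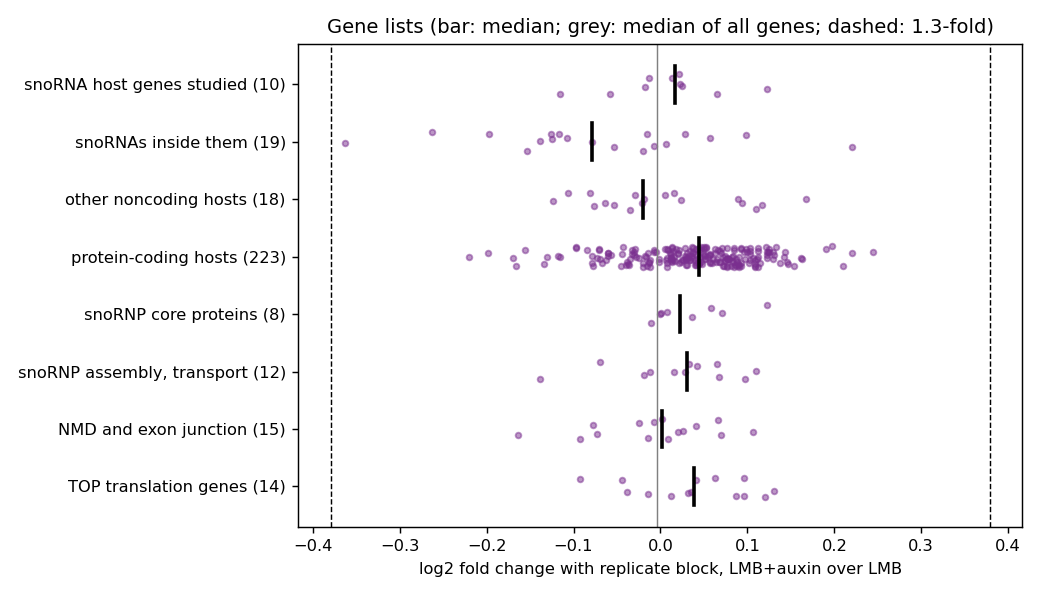
Log2 fold change with the replicate block, LMB+auxin over LMB (horizontal axis), for each tested gene of 8 lists, with the number of genes in brackets, the list median as a black bar, the median of all tested genes in grey and dashed lines at 1.3-fold. Every gene shown lies between the dashed lines, and the list medians run from -0.079 for the snoRNAs inside the hosts to 0.045 for protein-coding hosts.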

How the data were processed

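RNA was depleted of ribosomal RNA with Ribo-Zero Gold, made into TruSeq Stranded total RNA libraries and read as paired ends. Per the labels, the authors aligned reads to GRCh38 with STAR 2.6.1c and counted them with featureCounts 1.5.2 (CASAVA 1.8.2 for base calls). The table deposited holds raw read counts by Ensembl gene for 3 LMB and 3 LMB+auxin libraries, grouped by their titles. The study calls its replicates independent and biological. How strand and overlapping genes were treated in counting was not given in the sources used here.

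Symbols, coordinates and exons came from GENCODE 44 (GRCh38), and host snoRNAs also from RefSeq (GRCh38.p14). Genes with CPM above 1 in at least 3 libraries were tested over all 16974 with edgeR 4.0.16 (estimateDisp, glmQLFit robust, glmQLFTest, TMM) in R 4.3.3, with Benjamini-Hochberg adjustment. The standard error was the log2 fold change over the square root of F. DESeq2 1.42.0 and limma-voom (limma 3.58.1) were alternatives. The replicate number was also fitted as a block, since the deviations of same-numbered samples from their group means correlated above 0.1 in every pair (r = 0.53, 0.69 and 0.27 over 16974 genes for numbers 1, 2 and 3). Unlike numbers correlated from -0.57 to 0.15. Of these, LMB 3 with LMB+auxin 1 (0.14) and LMB 1 with LMB+auxin 3 (0.15) also lay above 0.1, so that bound alone does not single out the pairs. The pairing comes from the numbers in the titles and this check. Ratios used a pseudocount of 0.1 CPM and hosts with a mean snoRNA count of at least 10, and exact permutation tests used scipy 1.17.1. The fits were also run on simulated counts. Those counts had no difference between replicate numbers and less spread than the fit without the block found. They therefore do not test that fit at the spread of these data.

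The hosts, the lists and the rules for named genes were chosen with earlier results of these data known. Named were all 10 hosts, the most abundant and extreme snoRNAs, genes called in a list or else its extremes, 3 coding hosts each way, 5 most alike genes and the overlapping neighbours, some of which are not reported here. Combinations of the block with another choice, subtraction of snoRNA counts and the replicate test were added after seeing the data.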

Additional observations from a re-analysis of the deposited data

How the results depend on the processing

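No host was called in any of 25 alternative settings. Of 230 recomputed log2 fold changes of hosts, 19 changed sign, in 7 hosts, all when libraries were left out, whereas SNHG5, SNHG6 and SNHG16 kept theirs, at 0.019 to 0.19, -0.088 to -0.0022 and 0.028 to 0.12 when 1 library was left out. The values nearest 0 came without LMB+auxin replicate 1 for SNHG5 and SNHG16 and without LMB replicate 2 for SNHG6. Values ran from -0.22 to 0.20, with a lowest edgeR adjusted p of 0.168. Leaving out 1 library gave GAS5 -0.058 to 0.056, ZFAS1 -0.025 to 0.090, SNHG1 -0.10 to 0.13, SNHG8 -0.064 to 0.037, SNHG12 -0.041 to 0.095, SNHG15 -0.22 to 0.015 and EPB41L4A-AS1 -0.051 to 0.098. The host median ran from -0.044 (without LMB+auxin replicate 1) to 0.052. With the replicate block and 1 number left out it ran from -0.038 (without replicate 1) to 0.046, GAS5 from -0.035 to 0.021, ZFAS1 from -0.059 to 0.093, SNHG8 from -0.043 to 0.042, SNHG12 from -0.013 to 0.071 and EPB41L4A-AS1 from -0.051 to 0.077.

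In place of 1 gene, the replicate block called 201 (740 by adjusted p alone, 254 with library size, 234 with upper quartiles, 197 with DESeq2 size factors, 201 with snoRNA counts subtracted, and 141, 160 and 137 without replicate number 1, 2 and 3) and 31 by DESeq2. The block changed no call of a host. Without it DESeq2 called 11, no filter 39, library size alone 0 (737 genes at an unadjusted edgeR p under 0.05), and leaving out 1 library 0 to 5. A count of 0 came without LMB replicates 1 and 3 (367 and 529 genes at that p) and without replicates 1 and 3 of LMB+auxin (683 and 462).

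The median over snoRNAs in place of their sum turned the ratio difference of ZFAS1 to 0.0016 and of SNHG1 to 0.042. Leaving out 1 library gave SNHG1 -0.11 to 0.040, SNHG6 -0.16 to 0.19, SNHG8 -0.021 to 0.027, SNHG12 -0.11 to 0.014 and SNHG15 -0.18 to 0.054, while ZFAS1 (-0.16 to -0.018), SNHG5 (-0.41 to -0.16), SNHG16 (0.24 to 0.47) and EPB41L4A-AS1 (-0.29 to -0.044) kept their direction. SNHG6 had no value at a mean snoRNA count of 50. The cause of these changes was not tested. Of the 22 snoRNA genes, 3 were too shallow to test.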
